A study of Mus musculus with 6 samples.

Results

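The cyclic nucleotide phosphodiesterases that act on cAMP were examined in NIH3T3 mouse fibroblasts with and without forskolin (FSK). The set held 10 genes, Pde3a, Pde3b, Pde4a, Pde4b, Pde4c, Pde4d, Pde7a, Pde7b, Pde8a and Pde8b, chosen by family. Earlier results of these data were known when the set was chosen. All 10 were measured, by 11 of the 18197 probe sets paired with a single gene symbol, which stand for 16797 genes. Pde4d had 2 probe sets and each of the other members had 1.

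The data were 6 Affymetrix arrays of total RNA, 3 of FSK-treated cells (NF) and 3 of untreated cells (N), which the labels call biological replicates. NIH3T3 is an immortalized fibroblast line, called Normal cells in the study. Cells of both groups were plated in 25 mM glucose, moved after 16 h to medium with 1 mM glucose, and harvested 72 h later, so that N arrays also came from cells grown in low glucose. NF cells received 10 µM FSK at 24 h and again at 48 h, and N cells received none. In the study's scheme, cells without FSK were given DMSO, the vehicle, each day. The question was which enzymes that destroy cAMP differed in mRNA level after repeated doses of an activator of the enzymes that make it.

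Adenylate cyclases make cAMP, which activates protein kinase A (PKA), and phosphodiesterases end the signal by hydrolysing cAMP to AMP. FSK activates most membrane adenylate cyclases directly, without a hormone or receptor. The PDE4, PDE7 and PDE8 families are selective for cAMP, while PDE3 enzymes hydrolyse cAMP and are inhibited by cGMP. Feedback is well known for PDE4, since PKA phosphorylates and activates its long forms, and cAMP can raise transcription of its short forms through the factor CREB, which binds the cAMP response element (CRE).

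The promoter sequences of the members that rose are shown because the CRE is the element through which cAMP is best known to act on a gene. RefSeq start sites on GRCm38.p6 were available for 7 members, with 16 starts in all. The starts of Pde3a, Pde3b and Pde7a were not analysed here. The windows ran from 250 bases before to 50 bases after each start, and some windows of a gene overlap. Neither strand of the 16 windows held the complete CRE, TGACGTCA, which was found in 1.79% of all 32851 windows in the table. The CRE core, TGACG, which is also the start of the complete CRE, was found on either strand in 4 of the 16 windows, against 20.8% of all windows. The 4 windows belonged to Pde4a, Pde4b, Pde8a and Pde8b, and the 1 window of Pde4d held none. The 100 bases before the start are given below 5′ to 3′ for both members that rose and for 2 members that did not pass the test, with the core in capitals (CGTCA where it lies on the other strand).
Pde4d, chr13:108654077-108654176, plus strand: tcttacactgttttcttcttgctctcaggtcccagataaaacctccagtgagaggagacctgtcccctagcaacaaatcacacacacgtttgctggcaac
Pde4b, chr4:102421455-102421554, plus strand: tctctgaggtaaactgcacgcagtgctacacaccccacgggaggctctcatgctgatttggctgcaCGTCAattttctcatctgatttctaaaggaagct
Pde4a, chr9:21184001-21184100, plus strand: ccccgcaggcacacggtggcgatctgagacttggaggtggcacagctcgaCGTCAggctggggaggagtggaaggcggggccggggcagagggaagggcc
Pde8a, chr7:81213165-81213264, plus strand: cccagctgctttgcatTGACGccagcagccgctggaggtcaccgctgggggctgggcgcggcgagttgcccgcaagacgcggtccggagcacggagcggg
The core began 34 bases before the start in Pde4b, 50 bases before it in Pde4a and 84 bases before it in Pde8a. The letters were thus present in a member that rose and in members that did not pass the test. They were absent from the 1 window of Pde4d, the other member that rose. Pde4d has 8 RefSeq transcripts, and any other starts of this gene were not examined. This is a description of these windows and not of binding. Pde4b had 4 starts in the table and the other 3 of them held no core. Pde4a had 3 starts and Pde8b had 5, and in each gene only 1 window held the core. The Pde4a window printed is the 1 with the core. The core of Pde8b, not printed, began 38 bases after its start.

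The values are log2 expression values as deposited, and every change is the NF mean minus the N mean on that scale, tested with limma over all 18197 probe sets. The arrays had medians of 3.84 to 3.93. N replicate 1 stood apart from the other N arrays, with a spread of log2 values (SD) of 2.42 against 2.58 to 2.62 on the other 5 arrays. Its median shift from the rest of its group was -0.49 over the 6015 probe sets with a mean log2 value of 5 to 8, and each NF array was within 0.05 of its own group. Of the 9 fibroblast markers listed, 8 were measured, and all 8 were above the median of the array on all 6 arrays. None of 3 leukocyte and 4 endothelial markers was above it on any array, and none of 5 epithelial markers was above it on all 6. Of 3 adipocyte markers measured, the lipoprotein lipase gene Lpl was above it on all 6 arrays, with means of 7.33 in NF and 7.49 in N, while Adipoq and Fabp4 were above it on none. With bulk RNA, a larger number of expressing cells and more RNA per cell cannot be told apart.

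FSK-treated cells had higher mRNA levels of Pde4d and Pde4b, both of the PDE4 family, by 1.57 and 1.92 on the log2 scale. These were 2 of the 10 members, and no member passed the test in the lower direction. Over all 16797 genes, 2.55% passed in either direction and 1.83% passed in the higher direction. The 3 NF arrays lay above the 3 N arrays without overlap for Pde4d, Pde4b and Pde7a, which is 3 of 10 members, against 20.2% of all genes that did not overlap in either direction. By direction, 10.5% of all genes had NF wholly above N and 9.7% had NF wholly below N, and 0 members had NF wholly below N. The median change was 0.25 over the 10 members, against -0.03 over all genes tested. Mean values were higher in NF for 7 members and lower for 3. No test was made of these counts over the list.

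**Figure D1:**
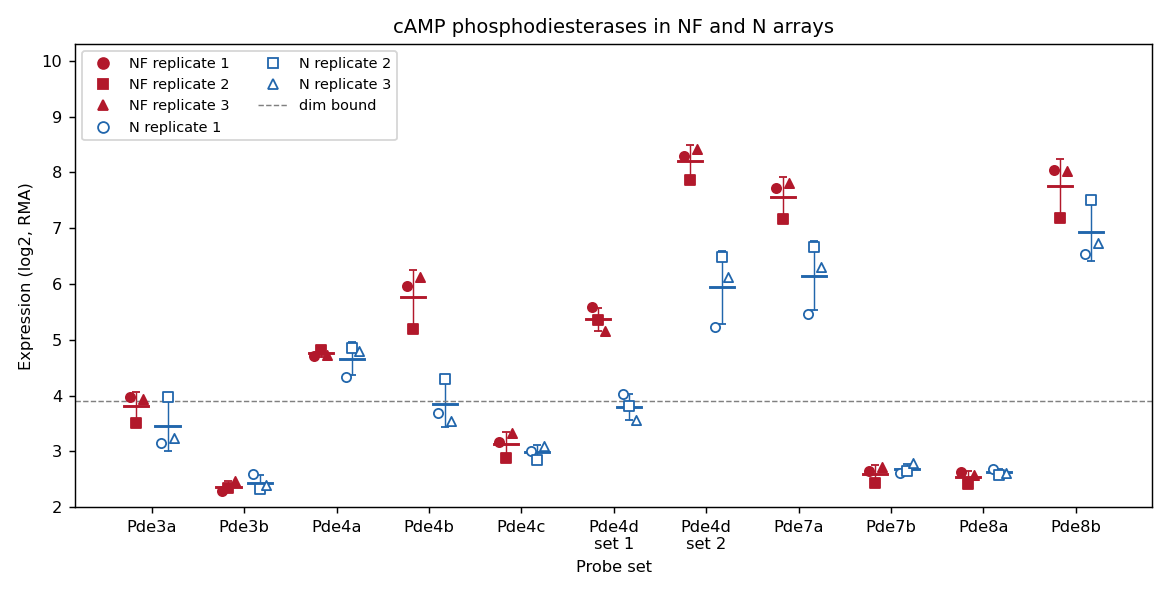
Expression (log2, RMA) of the 11 probe sets of the cAMP phosphodiesterases on each array, with NF filled and left of N for each probe set. Thick lines are group means, error bars are SDs over 3 arrays, and the dashed line is the median of the mean log2 values of all probe sets, 3.90. NF and N do not overlap for both Pde4d sets, Pde4b and Pde7a.

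Pde4d encodes a cAMP-specific phosphodiesterase that binds β-arrestins and A-kinase anchors and so acts at particular sites in the cell. Its probe set with the lower p (set 1) had 5.58, 5.36 and 5.16 in NF, against 4.03, 3.81 and 3.56 in N. All NF arrays were higher, and the closest pair of arrays of the 2 groups was 1.13 apart. The change was 1.57 (SE 0.17, 95% confidence interval 1.17 to 1.96, adjusted p = 0.00843), a 2.97-fold difference (2.26 to 3.90), and it was the 117th in size among the 16797 genes. The other probe set (set 2) had 8.30, 7.87 and 8.42 in NF, against 5.22, 6.49 and 6.12 in N. Here too all NF arrays were higher, with a gap of 1.38, and N replicate 1 was the lowest array. Set 2 changed by 2.25 (SE 0.31, 1.53 to 2.97, adjusted p = 0.0153), or 4.77-fold (2.90 to 7.86).

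The 2 Pde4d probe sets thus moved in the same direction by different amounts. The difference between them, set 1 minus set 2, was -2.83 ± 0.39 in NF and -2.14 ± 0.83 in N (SD, n = 3 arrays each). This difference shifted by -0.68 with FSK, which was within the spread of the arrays (two-sided exact permutation p = 0.4, where 0.1 is the smallest this design allows). Which transcripts of the gene each set detects is not given in the sources used here, so long and short forms were not separated.

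Pde4b encodes another cAMP-specific enzyme of the same family, best known from immune cells and brain, where its short form is inducible. Its values were 5.96, 5.20 and 6.13 in NF, against 3.69, 4.29 and 3.54 in N. The lowest NF array, replicate 2, was still 0.91 above the highest N array, also replicate 2. In N, replicates 1 and 3 lay below the median of the mean log2 values of all probe sets (3.90), whereas all NF arrays lay above it. The change was 1.92 (SE 0.28, 1.27 to 2.57, adjusted p = 0.0188), or 3.79-fold (2.41 to 5.96), the 45th in size among all genes.

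Pde4a and Pde4c, the other members of the family, gave no such difference. Pde4a, a widely expressed form, had 4.72, 4.82 and 4.73 in NF, against 4.33, 4.86 and 4.80 in N. The groups overlapped, and only N replicate 1 was apart. The change of Pde4a was 0.09, with an interval of -0.29 to 0.47 (adjusted p = 0.870). Pde4c had 3.17, 2.89 and 3.33 in NF, against 3.01, 2.84 and 3.10 in N, all below 3.90. Its change was 0.15 (-0.21 to 0.50, adjusted p = 0.762), and the upper bounds of both genes lay below the lower bound of Pde4b, 1.27.

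Pde7a and Pde7b encode high-affinity cAMP phosphodiesterases that are insensitive to the PDE4 inhibitor rolipram. Pde7a had 7.73, 7.17 and 7.80 in NF, against 5.46, 6.67 and 6.30 in N. The groups did not overlap, with a gap of 0.50, and N replicate 1 was the lowest array by far. The change was 1.42 (SE 0.31, 0.71 to 2.14), or 2.68-fold (1.63 to 4.40), and did not pass the test (adjusted p = 0.0615). Pde7b had 2.65, 2.43 and 2.73 in NF, against 2.62, 2.65 and 2.79 in N. These overlapped, at a level below 3.90 on every array, with a change of -0.09 (-0.39 to 0.22, adjusted p = 0.849).

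Pde8a and Pde8b encode cAMP phosphodiesterases of very high affinity that carry a PAS domain and resist the general inhibitor IBMX. Pde8b had 8.04, 7.19 and 8.02 in NF, against 6.53, 7.50 and 6.74 in N. NF replicate 2 lay below N replicate 2, and the other NF arrays lay above all N arrays. The change was 0.83 (SE 0.31, 0.11 to 1.54), or 1.77-fold, and did not pass the test (adjusted p = 0.288), although its unadjusted p was 0.0288. Pde8a had 2.63, 2.42 and 2.58 in NF, against 2.68, 2.59 and 2.61 in N. Its groups overlapped below 3.90 and the change was -0.08 (-0.37 to 0.20, adjusted p = 0.838).

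Pde3a and Pde3b encode the cGMP-inhibited enzymes, known from heart and platelets and from the insulin response of fat cells. Pde3a had 3.98, 3.51 and 3.94 in NF, against 3.15, 3.97 and 3.24 in N. N replicate 2 was level with the highest NF array, and the change was 0.36 (-0.20 to 0.91, adjusted p = 0.603). Pde3b had 2.29, 2.35 and 2.47 in NF, against 2.60, 2.33 and 2.39 in N. The groups overlapped below 3.90 on all arrays, with a change of -0.07 (-0.37 to 0.24, adjusted p = 0.880). Of the 8 members that did not pass, Pde3a, Pde3b, Pde4c, Pde7b and Pde8a had a mean over the 6 arrays below 3.90, and Pde4a, Pde7a and Pde8b had a mean above it.

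**Figure D2:**
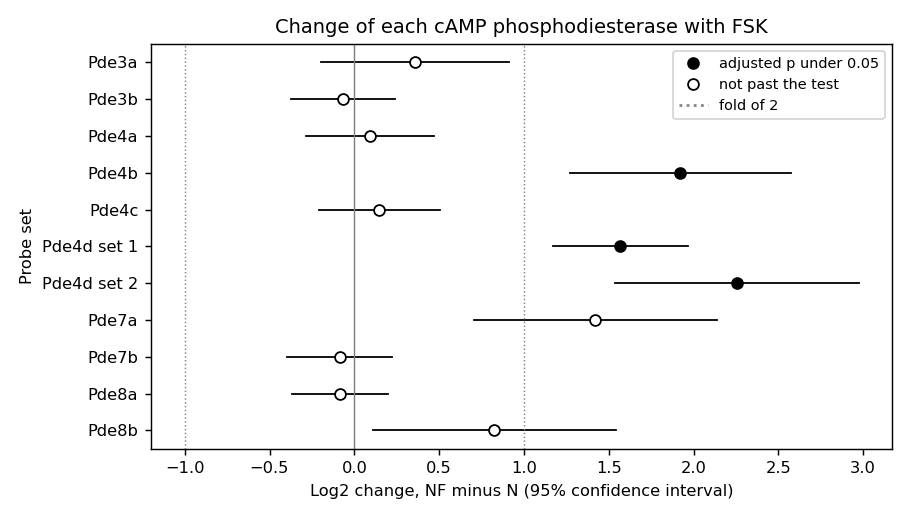
Log2 change, NF minus N, of each probe set, with its 95% confidence interval from limma. Filled points passed the test (adjusted p under 0.05) and dotted lines mark a fold of 2 in either direction. Both Pde4d sets and Pde4b passed, with changes of 1.57, 2.25 and 1.92, and the interval of Pde7a, around 1.42, lies above 0 although it did not pass.

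Whether members of one family differed in their change was asked for the 9 pairs within PDE3, PDE4, PDE7 and PDE8, from the difference of the 2 log2 values within each array. Pde4b changed more than Pde4a by 1.83 (95% interval 0.76 to 2.91) and Pde4d more than Pde4a by 1.48 (0.61 to 2.35). Pde4d also changed more than Pde4c by 1.42 (0.67 to 2.17), and Pde4c changed less than Pde4b, by -1.78 (-2.73 to -0.82). Pde7b changed less than Pde7a, by -1.51 (-2.50 to -0.51). In each of these 5 pairs the NF and N arrays did not overlap. This gives the smallest p that the exact permutation test allows here (0.1, or 0.18 adjusted over the 9 pairs). No pair could thus pass a threshold of 0.05. Pde4c and Pde7b were below 3.90 on every array. For the pairs with either of them, a smaller change cannot be told apart from a signal too low to show one.

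The other 4 pairs overlapped, and Pde8a, Pde3b and Pde4c were below 3.90 on every array, with the same limit. Pde8b minus Pde8a gave 0.91 (-0.17 to 1.99, exact permutation p = 0.2, adjusted 0.3), and Pde3b minus Pde3a gave -0.42 (-1.43 to 0.58, exact permutation p = 0.3, adjusted 0.386). Pde4d minus Pde4b gave -0.35 (-1.48 to 0.77, exact permutation p = 0.5, adjusted 0.563), an interval wide enough to hold a difference of either sign, and the sign turned to 0.33 with set 2 of Pde4d. Pde4c minus Pde4a gave 0.06 (-0.66 to 0.77, exact permutation p = 0.8, adjusted 0.8).

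The arrays that carried the differences were not the same for all members. N replicate 1 was below the mean of the other N arrays by 1.08 for Pde4d set 2 and by 1.02 for Pde7a, but above it by 0.35 for Pde4d set 1. NF replicate 2 was below the mean of the other NF arrays by 0.84 for Pde4b, 0.85 for Pde8b and 0.59 for Pde7a, and by less than 0.01 for Pde4d set 1. Without N replicate 1, the array that stood apart, Pde4d set 1 changed by 1.69 (adjusted p = 0.00132) and Pde4b by 1.85 (adjusted p = 0.0104). Pde7a then changed by less, 1.08, and passed the test (adjusted p = 0.0201).

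Both calls were lost when NF replicate 1 or NF replicate 3 was left out, while the sizes stayed near those of the 6 arrays. Pde4d set 1 had 1.46 without NF replicate 1 (adjusted p = 0.0724) and 1.67 without NF replicate 3 (adjusted p = 0.0646). Pde4b had 1.82 without NF replicate 1 (adjusted p = 0.121), 1.74 without NF replicate 3 (adjusted p = 0.130) and 1.77 without N replicate 3 (adjusted p = 0.0631). Of all 16797 genes, 428 passed with all arrays, 1 without NF replicate 1 and 2 without NF replicate 3. Over all alternatives with an adjusted p, it ran from 0.00104 to 0.215 for Pde4d, from 0.00260 to 0.295 for Pde4b and from 0.00448 to 0.395 for Pde7a. For Pde4d the set that stood for the gene varied with the setting, and the lowest value came from set 2 and the highest from set 1.

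**Figure D3:**
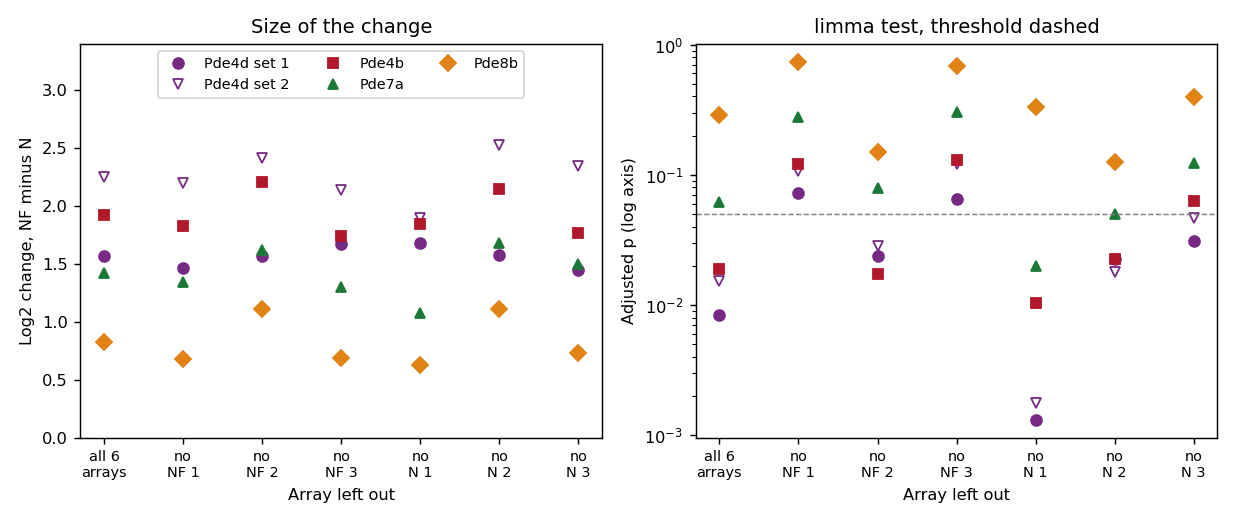
Log2 change, NF minus N (left), and adjusted p on a log axis (right) for both Pde4d probe sets, Pde4b, Pde7a and Pde8b with all 6 arrays and with each array left out in turn. The dashed line is the threshold of 0.05. The changes of Pde4b stay between 1.74 and 2.20, and all 5 probe sets lie above the threshold without NF replicate 1 or NF replicate 3.

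The genes whose levels over the 6 arrays were most like those of the 2 members that rose were found from the root mean square difference of values, each centred on its own mean. For Pde4d set 1 they were Slpi, a secreted protease inhibitor (0.177), Marcks, an actin-binding substrate of protein kinase C (0.180), and Dpt, a matrix protein (0.183). For Pde4b they were Glrx, a glutaredoxin (0.125), Spon2, a secreted matrix protein (0.160), and Mrgprf, an orphan receptor (0.163). These 6 genes rose with changes of 1.39 to 2.01. The closeness was measured on the same 6 arrays as the change, so it is a description of the pattern only.

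The other genes around the cAMP signal were taken from 10 lists of 104 genes, of which 76 had a probe set with 1 symbol. Of these, 2 rose, 0 fell and 74 did not pass, a share close to the 2.55% of all genes, and their median change was -0.01. Of the 76 genes, 27 were above the median of the array on all 6 arrays, and at low levels a change may not show. The lists were written from general knowledge, with earlier results of these data known. Among the enzymes that make cAMP, 1 of 8 adenylate cyclases rose, Adcy6. It was also the only 1 of the 8 with a mean over the 6 arrays above 3.90. Adcy6, a membrane cyclase that FSK activates and calcium inhibits, had 6.48, 6.28 and 6.44 in NF, against 5.27, 5.75 and 5.46 in N. All NF arrays were higher, and the change was 0.90 (SE 0.16, adjusted p = 0.0298). Adcy2, at a level below 3.90, did not pass, with a change of -0.49 (adjusted p = 0.113).

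Of 14 anchors and partners of phosphodiesterases, 1 rose. Arrb1, which encodes β-arrestin 1, a scaffold that brings PDE4D to activated receptors, had 6.32, 5.90 and 6.51 in NF, against 4.69, 5.46 and 5.14 in N. The groups did not overlap, and the change was 1.15 (SE 0.23, adjusted p = 0.0482). Akap13, an anchor of PKA and an activator of RhoA, had 7.43, 6.64 and 7.63 in NF, against 5.08, 6.12 and 5.86 in N. It did not pass, with a change of 1.55 (adjusted p = 0.0551). Akap6, an anchor that binds PDE4D in heart muscle, had a change of 0.35 (adjusted p = 0.282).

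The calls of Adcy6 and Arrb1 depended on the arrays used. Without NF replicate 1 their adjusted p was 0.184 and 0.238, without NF replicate 3 it was 0.181 and 0.249, and without N replicate 3 it was 0.0823 and 0.114. Without NF replicate 2 it was 0.0662 and 0.0596, while Akap13 passed (1.85, adjusted p = 0.0445). Akap13 also passed without N replicate 1 (1.24, adjusted p = 0.0299). Over these settings, with the pair of arrays left out together, the replicate block and quantile normalization, the adjusted p ran from 0.0154 to 0.184 for Adcy6, from 0.00754 to 0.249 for Arrb1 and from 0.00216 to 0.273 for Akap13.

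No other phosphodiesterase passed the test. Among the 5 enzymes measured that act on both cAMP and cGMP, Pde1a, which calcium and calmodulin activate, had 5.91, 5.72 and 6.07 in NF, against 5.03, 4.85 and 5.51 in N. Its arrays did not overlap, but its change of 0.77 did not pass (adjusted p = 0.0960), and Pde11a changed by -0.14 (adjusted p = 0.709). The 8 genes listed under cGMP phosphodiesterases had changes between -0.17 and 0.22. Pde6d was highest and Pde6a lowest, both genes of the photoreceptor enzyme or its partners.

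The receptors, effectors and exporters of the pathway gave no call either. Of 7 genes measured among Gs-coupled receptors and Gs, Calcrl, a receptor for adrenomedullin and CGRP, had the lowest p, with a change of -0.62 (adjusted p = 0.250). Of 3 PKA genes measured, the regulatory subunit Prkar2a changed by 0.52 (adjusted p = 0.304). The 10 genes of Epac and other cAMP effectors had a median change of 0.00. The cAMP exporters Abcc5 and Abcc4 changed by 0.45 (adjusted p = 0.515) and 0.21 (adjusted p = 0.830). Of 5 kinases that phosphorylate cAMP phosphodiesterases, Camk2d changed by 0.32 (adjusted p = 0.276).

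Of 15 genes known as targets of CREB, 0 passed the test, although 8 had an unadjusted p under 0.05, compared with 2322 of all 16797 genes. They moved in both directions and their median change was 0.05. Per2, a circadian repressor, had 4.68, 4.77 and 4.68 in NF, against 4.26, 4.20 and 4.01 in N, a change of 0.55 (adjusted p = 0.0719). Btg2, an antiproliferative gene, had 4.50, 4.99 and 5.18 in NF, against 5.64, 5.51 and 5.91 in N. The groups did not overlap for either gene, and the change of Btg2 was -0.80 (adjusted p = 0.0969). The arrays were taken 24 h after the last dose of FSK, so early and short-lived responses were not measured.

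**Figure D4:**
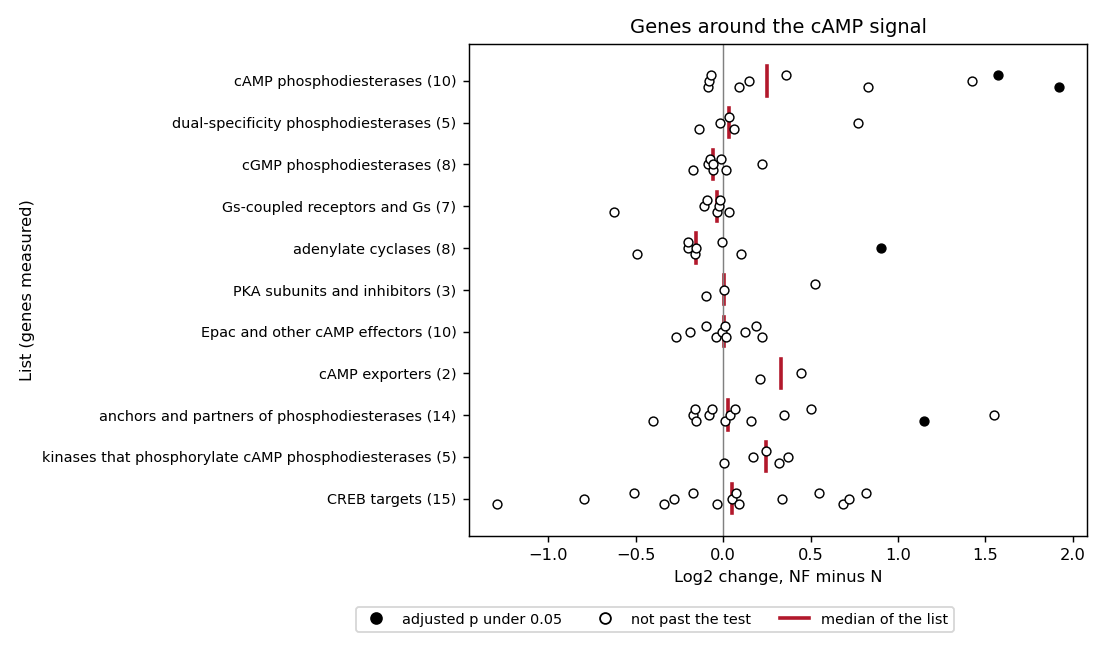
Log2 change, NF minus N, of each measured gene of the cAMP phosphodiesterases and of the 10 other lists, with the number of genes measured in brackets. Filled points passed the test (adjusted p under 0.05) and red bars are list medians. Filled points are Pde4d and Pde4b, Adcy6 among the adenylate cyclases and Arrb1 among the anchors and partners.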

How the data were processed

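Total RNA of 3 NF and 3 N samples was hybridised to Affymetrix gene arrays. The authors computed log2 expression values with RMA (version not given in the sources used here), a method that usually includes quantile normalization between arrays, and discarded probe sets without an Entrez gene. The deposited table held 22035 probe sets. Which arrays were normalized together is not stated, and the 6 arrays did not share one distribution (SD 2.42 to 2.62). The platform annotation gave 1 symbol for 18197 of them, several for 1260, and did not list 2578. Symbols of 18187 were matched by Entrez ID and 0 changed. Array data give no count depth, so the number of arrays limits the precision.

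NF was compared with N by limma 3.58.1 (lmFit and eBayes) in R 4.3.3, with Benjamini-Hochberg adjustment over 18197 probe sets and a threshold of 0.05, and the procedure was tested on simulated data. Where a gene had several probe sets, the one of lowest p stood for it, as in the study's methods. Intervals are 95% intervals of the fit or, for pairs of members, of the pooled SD. The members, lists and tests were chosen with earlier results of these data known. Named genes were all 10 members, the genes of each list that passed and up to 2 others with the lowest p, and the 3 genes most like each member that passed. The alternatives tried were a block for replicate number, normalization, centring, filters, the probe set chosen, moderation, the methods' t-test, which the study names in its general statistics while it used limma for the arrays, and arrays left out. Same-numbered arrays deviated with correlations of -0.0748, -0.0780 and -0.0736. These values, from 3 arrays a group, do not settle whether same-numbered samples were prepared together, which was not tested.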

Additional observations from a re-analysis of the deposited data

How the results depend on the processing

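The 165 values of members under 17 alternatives kept direction and side of the threshold in 143 cases, which include members that passed in no setting. Of the 2 members called, Pde4b no longer passed in 5 of 17 alternatives and Pde4d in 3 of 17. Pde7a passed in 7 of 17, including the unadjusted t-test. Differences between members kept their sign in 78 of 81 values, which come from fewer alternatives and could not pass a threshold in any of them. With the replicate block, 1 member passed (Pde4d), as did 80 of all genes and 0 genes of the other lists. Pde4b then had an adjusted p of 0.0750. Each NF array correlated best with an N array of another number, and whether the numbers pair the samples was not tested. After the t-test of the study's general statistics, with adjustment, 0 members, 1 gene overall and 0 list genes passed (3 members, 1861 genes and 13 list genes at unadjusted p under 0.05). Quantile normalization of the 6 arrays, which as deposited did not share one distribution, gave 860 genes and 5 list genes, robust estimation gave 1 list gene, and all probe sets tested gave 239 genes and 1 list gene. Without both N replicate 1 and NF replicate 2 there were 1038 genes and 7 list genes. Leaving out each array in turn gave 0 to 3 members called, 1 to 922 genes and 0 to 5 list genes. Calls were higher in NF for 71.7% of genes, against 57.6% after quantile normalization and 53.4% when N replicate 1 was left out.

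Pde7a also passed after quantile normalization (1.31, adjusted p = 0.0161), centring (0.0493), without dim probe sets (0.0348) and with trend (0.0401). Signs turned for values near 0. With that pair of arrays left out Pde3b had 0.0210, Pde4a -0.11 and Pde8a 0.00878, and quantile normalization gave 0.00100 for Pde3b. With 1 array left out, Pde3b ran from -0.12 to 0.0119, Pde4a from -0.0742 to 0.19, Pde7b from -0.15 to 0.000567 and Pde4c minus Pde4a from -0.11 to 0.24. Pde4d minus Pde4b was 0.33 with the probe set of the highest mean. The filter on dim probe sets left 5 members, of which Pde4b and Pde4d set 1 had means under 3.90 in N and passed the filter through NF. The cause of these shifts was not tested, and 3 arrays a group limit all calls.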
